A study of Mus musculus with 12 samples.

Results

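The GIMAP genes encode GTPases of the immunity-associated protein family, and 8 of them were measured in mouse regulatory T cells (Tregs) with and without the histone methyltransferase Ezh2. The members were taken by gene symbol, and Gimap1, Gimap3, Gimap4, Gimap5, Gimap6, Gimap7, Gimap8 and Gimap9 were all found, 8 of 23352 symbols in the files. GIMAP proteins are GTP-binding proteins of lymphocytes, many of them held at intracellular membranes such as those of the endoplasmic reticulum, Golgi and lysosome. They are best known for the survival of resting T cells: mice and rats that lack Gimap5 lose peripheral T cells, and loss of Gimap1 depletes mature lymphocytes. The mouse genes lie side by side in a single cluster, as in other mammals.

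RNA was sequenced from Tregs sorted from spleen and lymph node of female C57BL/6 mice as CD62Lhi and CD62Llo cells. Every mouse carried Foxp3YFP-Cre on one Foxp3 allele and Foxp3WT on the other, so the Cre recombinase was driven from the Foxp3 locus in all groups, the controls included. Ezh2-HET mice were Ezh2fl/+, with a floxed and a wild-type Ezh2 allele, and Ezh2-KO mice were Ezh2fl/fl. In such females, X inactivation leaves Tregs that use the Foxp3WT allele and no Cre, and the sources used here give neither whether the sort selected YFP nor the age of the mice. The groups analysed were Ezh2-HET CD62Lhi (n = 2), Ezh2-HET CD62Llo (n = 3), Ezh2-KO CD62Lhi (n = 3) and Ezh2-KO CD62Llo (n = 3). Ezh2-HET CD62Lhi replicate 3 was left out, since its label says that the submitters removed it for few reads. Its file held 589 entries above 0, and 4 of the 8 GIMAP genes were listed at 0. Nothing in the labels says that the replicates came from separate mice, so p-values measure the spread between these libraries, which may be technical.

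Values are FPKM, a read density scaled to transcript length and library size, as the authors deposited it, so levels can be compared roughly between genes. For some members, Gimap5 above all, the level relative to the others depended on which deposited values were read, as given below. Differences between groups are on the log2(FPKM + 1) scale, from 1 limma fit of all 11 libraries, and a gene was called at a Benjamini-Hochberg adjusted p under 0.05 over all 11431 tested genes. All 8 GIMAP genes passed the filter on low values, which asked for 2 or more libraries with an FPKM of 1 or more, and did so in every group. Foxp3, the lineage factor of Tregs, had group means of 84.2 to 91.8 FPKM. Cd44, an activation marker of T cells, stood at 11.6 ± 0.742 in HET CD62Lhi (SD, n = 2) and 33.2 ± 2.11 in HET CD62Llo (SD, n = 3), and at 10.4 ± 0.0907 and 24.6 ± 4.94 in the KO fractions (SD, n = 3 each). Ezh2 itself was measured over the whole gene, so its level does not report loss of the floxed part: its group means were 12.6 and 18.8 FPKM in HET CD62Lhi and CD62Llo, and 10.6 and 14.6 in KO.

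In the mm10 genome the GIMAP cluster spans 124 kb of chromosome 6, from 48647234 to 48770851, in the order Gimap8, Gimap9, Gimap4, Gimap6, Gimap7, Gimap1, Gimap5 and Gimap3. Gimap6 and Gimap3 lie on the minus strand and the other 6 on the plus strand. The 250 bases before the RefSeq transcription start (build GRCm38.p6, the assembly called mm10) are shown for 3 members: Gimap7, the member that was called, Gimap4, whose differences had the opposite sign, and Gimap6, whose group means lay closest together. Sequences run 5′ to 3′ on the strand of the gene. Capitals mark the letters of 4 motifs on either strand: CACCC (the core bound by KLF factors), GTAAACA (FOXO), TGTGGT (RUNX) and AGGAAG (ETS). No match overlaps another in these windows.

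Gimap7, chr6:48718371-48718620, plus strand: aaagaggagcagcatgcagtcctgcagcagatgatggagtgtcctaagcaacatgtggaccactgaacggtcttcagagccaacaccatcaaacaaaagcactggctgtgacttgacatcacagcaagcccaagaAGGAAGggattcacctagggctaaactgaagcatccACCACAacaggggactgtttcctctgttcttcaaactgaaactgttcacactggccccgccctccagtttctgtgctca
Gimap4, chr6:48684328-48684577, plus strand: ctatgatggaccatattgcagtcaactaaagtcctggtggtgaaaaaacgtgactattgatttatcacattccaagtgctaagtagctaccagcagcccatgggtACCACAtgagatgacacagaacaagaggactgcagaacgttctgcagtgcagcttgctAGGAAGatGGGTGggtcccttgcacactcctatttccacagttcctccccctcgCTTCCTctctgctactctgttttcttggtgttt
Gimap6, chr6:48708245-48708494, minus strand: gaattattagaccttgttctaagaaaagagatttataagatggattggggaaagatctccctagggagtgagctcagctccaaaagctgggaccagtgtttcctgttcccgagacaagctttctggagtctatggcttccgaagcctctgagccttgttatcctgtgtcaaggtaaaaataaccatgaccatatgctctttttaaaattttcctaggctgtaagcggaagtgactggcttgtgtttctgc

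The Gimap7 window holds an ETS and a RUNX core, the Gimap4 window holds these and a KLF core, and the Gimap6 window holds none of the 4 sets of letters. Over the family, AGGAAG was in a window of 7 of 8 members, against 29.5% of 32851 windows of the same length, and TGTGGT in 3 of 8 (Gimap1, Gimap4 and Gimap7), against 14.0%. CACCC was found in 5 of 8 members, against 52.0%, and GTAAACA in Gimap3 alone, against 3.17%. These are letter matches, not measured binding, and Gimap8 has 2 annotated starts, so it had 2 chances of a match.

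The GIMAP genes were among the abundant transcripts of all 4 Treg groups. Their summed level was 2029 to 2303 FPKM in the 11 libraries, 0.332% to 0.398% of the sum over all symbols. Gimap3, a membrane-anchored relative of Gimap5, had the highest mean, 596 FPKM, place 131 of the 11431 tested genes. Gimap4, which has been tied to the execution of T cell death, followed at 586 FPKM and place 134. Gimap6, which binds the autophagy protein GABARAPL2, had 389 FPKM, and Gimap1, needed for mature B and T cells, 181. Gimap8, whose protein has more than 1 GTPase domain, had 121 FPKM, Gimap9 had 108, and Gimap7, which can activate the GTPase of other family members, 105. Gimap5, the family's best studied survival gene, was lowest at 85.8 FPKM, place 848.

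The order of levels was stable where the gaps were wide. Gimap4 exceeded Gimap6, Gimap6 exceeded Gimap1, Gimap1 exceeded Gimap8 and Gimap7 exceeded Gimap5 in 11 of 11 libraries each. Gimap8 exceeded Gimap9 in 10 of 11. Gimap3 exceeded Gimap4 in 7 of 11 and Gimap9 exceeded Gimap7 in 7 of 11, so neither of these pairs kept 1 order over all libraries. For Gimap9 and Gimap7 the order varied with the fraction. In CD62Lhi libraries Gimap9 (103 to 112 FPKM) lay above Gimap7 (84.0 to 102), whereas in CD62Llo libraries their ranges overlapped (92.3 to 117 and 87.1 to 140). The ratio of Gimap3 to Gimap5, the gene it resembles most, ran from 6.45 to 7.55 over the libraries. In the authors' deposited group table it was 11.6 to 15.6, and there Gimap4 exceeded Gimap3 in all 4 groups, by 1.04 to 1.17 times.

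**Figure D1:**
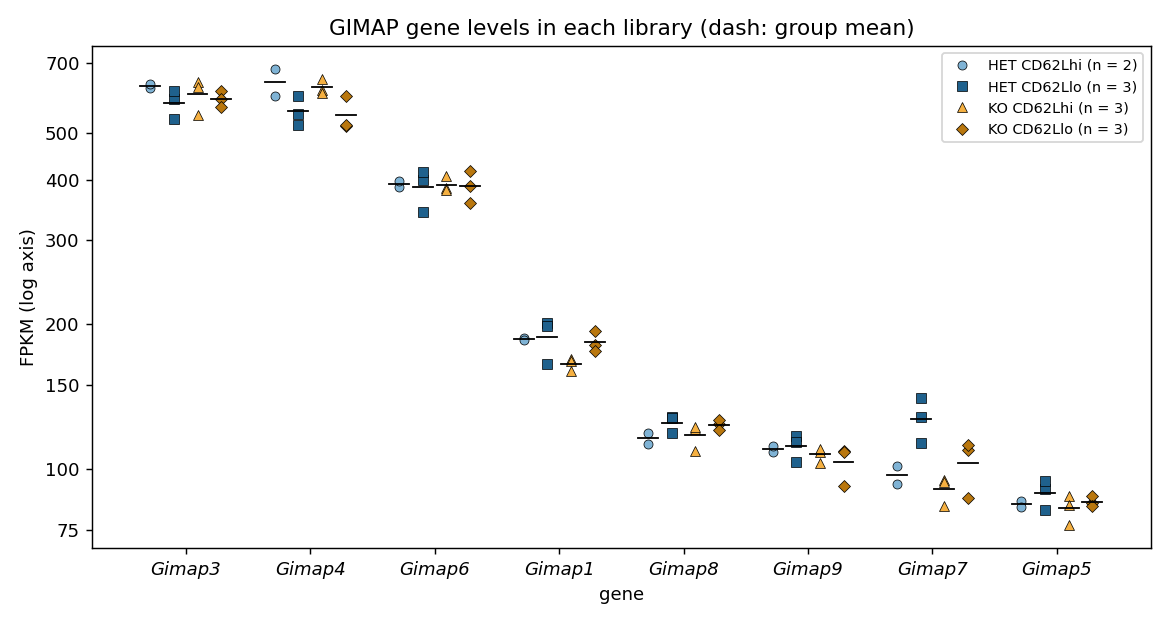
FPKM of each GIMAP gene in each of the 11 libraries on a log axis, with points by group and a dash at the group mean. Gimap5, Gimap6, Gimap8 and Gimap9 overlap in each of the 4 comparisons of 2 groups, and the HET CD62Llo libraries of Gimap7 (113 to 140 FPKM) lie above those of HET CD62Lhi (93.1 to 102).

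The family varied little between the groups. The distance from the lowest to the highest group mean had a median of 0.11 on the log2 scale over the 8 genes, against 0.24 over all tested genes and 0.22 over the 1554 genes with a mean of at least 50 FPKM. Gimap6 had the smallest distance in the family, 0.03: its group means were 392 ± 8.11 (HET CD62Lhi, SD, n = 2), 385 ± 37.7 (HET CD62Llo, SD, n = 3), 390 ± 14.0 (KO CD62Lhi, SD, n = 3) and 388 ± 29.4 (KO CD62Llo, SD, n = 3). Of all tested genes, 0.420% had a smaller distance than Gimap6. Gimap7 had the largest of the 8, 0.47, above that of 78.1% of tested genes. For Gimap1, Gimap3, Gimap4, Gimap5, Gimap8 and Gimap9 the distance was 0.11 to 0.23.

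The first question was whether the family differs between the CD62L fractions of control Tregs. Gimap7 was higher in HET CD62Llo than in HET CD62Lhi Tregs, and no other member was called. In HET CD62Lhi, Gimap7 had 102 and 93.1 FPKM, and in HET CD62Llo it had 128, 140 and 113. The groups did not overlap, and the means were 97.4 ± 6.06 (SD, n = 2) and 127 ± 13.5 (SD, n = 3), a ratio of 1.31. The fitted difference was 0.38 (SE 0.12, 95% interval 0.10 to 0.66, limma adjusted p = 0.0457). With 1 of 8 members called, the family stood beside a background of 27.7% of all tested genes called in this comparison, 18.8% higher and 8.88% lower, and its 1 unadjusted p under 0.05 beside 39.3%. The authors' deposited group table gave Gimap7 119.8 FPKM in HET CD62Lhi and 149.4 in HET CD62Llo.

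That call sits near its threshold. Over 23 alternatives Gimap7 was higher in HET CD62Llo in all, and was called in 9, with adjusted p from 0.00216 to 0.280. Leaving out 1 library lost the call for both HET CD62Lhi libraries (adjusted p = 0.102 without replicate 1, 0.223 without replicate 2) and for HET CD62Llo replicate 1 (0.0852) and replicate 2 (0.130). The call was likewise lost without KO CD62Lhi replicate 1 (0.0615), 2 (0.0636) or 3 (0.0510) and without KO CD62Llo replicate 1 (0.0530), libraries that enter only the shared spread.

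The other 7 members differed between the HET fractions by -0.20 to 0.11. Gimap4 had 596 and 680 FPKM in HET CD62Lhi and 520, 597 and 549 in HET CD62Llo, so 1 library of the second group reached the range of the first. Its fitted difference was -0.20 (SE 0.09, limma adjusted p = 0.129). Gimap4 crossed the threshold when each library was centred on its median (-0.30, limma adjusted p = 0.0442), a scaling that lowers the median of all genes by 0.10 and under which Gimap7 was not called (0.28, adjusted p = 0.0963). Gimap3 had 620 and 632 FPKM in HET CD62Lhi and 534 to 611 in HET CD62Llo, groups that did not overlap, with a fitted difference of -0.12 (SE 0.08, limma adjusted p = 0.320). Gimap3 and Gimap7 were the 2 of 8 members whose HET fractions did not overlap, against 53.9% of all tested genes. The largest 95% interval of the other 7 genes reached down to -0.40, for Gimap4.

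In the KO mice 0 of 8 members were called between the fractions by limma, against 16.2% of all tested genes (11.9% higher and 4.26% lower), and 1 of 8 had an unadjusted p under 0.05, against 29.3%. That gene was Gimap4, whose CD62Lhi libraries stood at 613, 606 and 648 FPKM and whose CD62Llo libraries stood at 518, 520 and 596. The groups did not overlap, and the fitted difference, -0.20 (SE 0.08, limma adjusted p = 0.136), was of the same size as in the HET mice. Without KO CD62Llo replicate 3, the highest of its group, it was -0.26 (limma adjusted p = 0.0553), and with median centring as well it was called (-0.35, adjusted p = 0.0242).

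Gimap7 did not separate the KO fractions. Its CD62Lhi libraries had 95.1, 94.3 and 84.0 FPKM and its CD62Llo libraries 109, 112 and 87.1, where replicate 3 lay within the CD62Lhi range. Its difference was 0.17 (SE 0.11, limma adjusted p = 0.351), or 0.28 without KO CD62Llo replicate 3 (adjusted p = 0.0788). Gimap1 had 160 to 169 FPKM in KO CD62Lhi and 176 to 193 in KO CD62Llo, without overlap, a difference of 0.15 (SE 0.07, limma adjusted p = 0.233). Non-overlapping fractions were thus seen in 2 of 8 members, Gimap1 and Gimap4, against 34.8% of all tested genes. Gimap3, Gimap5, Gimap6, Gimap8 and Gimap9 differed by -0.06 to 0.07.

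The difference between the fractions was itself compared between genotypes. The interaction called 0 of 8 members by limma, against 0.00875% of all tested genes, and 0 of 8 had an unadjusted p under 0.05, against 7.59%. For Gimap7 the fraction difference in KO minus that in HET was -0.21 (SE 0.17, 95% interval -0.58 to 0.16, limma adjusted p = 0.802), so the call in HET and its absence in KO do not show that the genotypes differ. For Gimap4 it was 0.00 (SE 0.12, 95% interval -0.26 to 0.27).

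**Figure D2:**
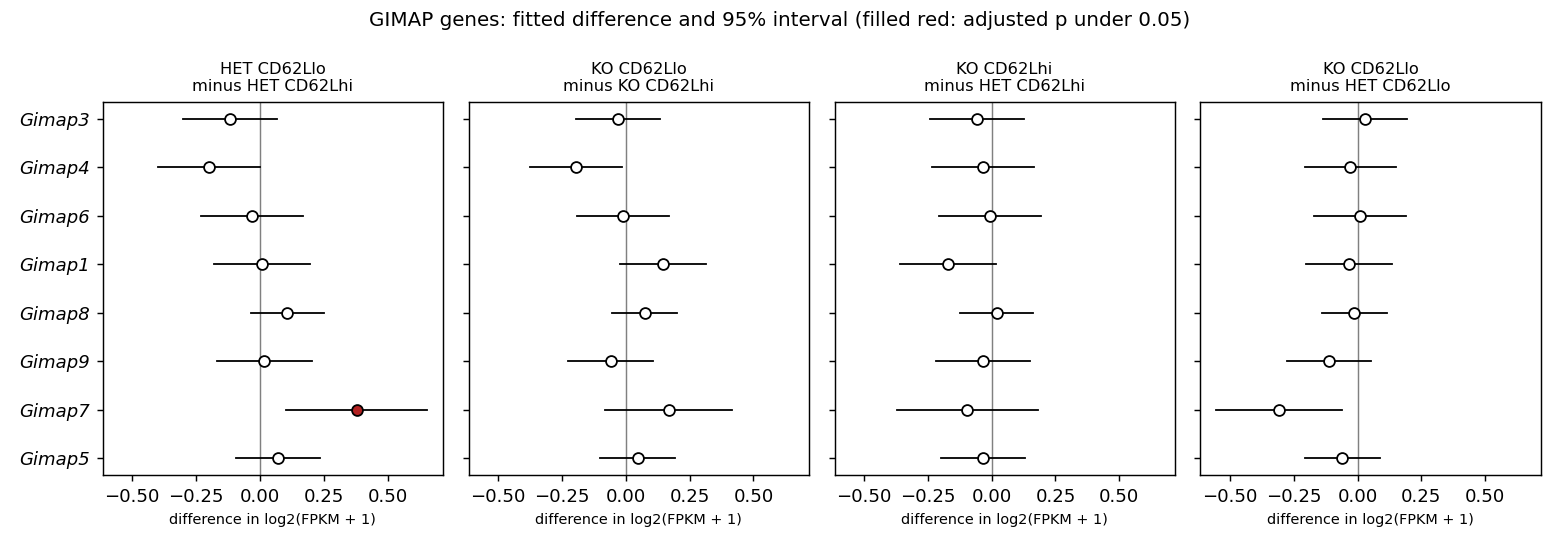
Fitted differences in log2(FPKM + 1) with 95% intervals for the 8 genes in 4 comparisons, with a filled red point where the adjusted p is under 0.05. The single filled point is Gimap7 between the HET fractions (0.38), and Gimap4 is at -0.20 between the fractions of both genotypes.

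The next question was whether the family differs with the loss of Ezh2. Among CD62Lhi Tregs 0 of 8 members were called by limma, as were 0% of all tested genes, and 0 of 8 had an unadjusted p under 0.05, against 2.87%. The differences were -0.17 to 0.02, and every 95% interval lay between -0.37 and 0.19. Gimap1 had the lowest value: its 188 and 186 FPKM in HET lay above the 169, 168 and 160 FPKM in KO, a difference of -0.17 (SE 0.08, limma adjusted p = 1). It was the 1 of 8 members without overlap, against 22.2% of all tested genes.

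Among CD62Llo Tregs 0 of 8 members were called by limma, against 4.60% of all tested genes (1.36% higher and 3.25% lower), and 1 of 8 had an unadjusted p under 0.05, against 18.9%. That gene was Gimap7, at 109, 112 and 87.1 FPKM in KO against 128, 140 and 113 in HET, where every KO library lay below every HET library. The means were 103 ± 13.9 and 127 ± 13.5 (SD, n = 3 each), with a difference of -0.31 (SE 0.11, 95% interval -0.55 to -0.06, limma adjusted p = 0.170). Same-numbered CD62Llo libraries of HET and KO were weakly alike in their deviations (r of 0.148 to 0.165, against -0.237 to 0.0844 for the other pairs). The deviations of a group sum to 0 for each gene, so alike pairs pull the r of the other pairs down. Between the KO fractions the pattern was similar, with r of 0.0684 to 0.178 for same-numbered libraries, against -0.179 to 0.0858. The labels do not say what a replicate number marks. With that number as a block the same difference had an SE of 0.06 and was called (limma adjusted p = 0.0259). The 4.60% above is for the fit without the block, and the share under the block is not given here. In this comparison the block also newly called genes of other lists, among them Gbp3, Il7r, Map1lc3b and Foxo1. Without KO CD62Llo replicate 3 the difference was -0.19 (adjusted p = 0.354). Gimap7 was the 1 of 8 members without overlap, against 20.2% of all tested genes, and the other 7 differed by -0.11 to 0.03.

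Gimap7 and Gimap4 had differences of opposite sign between the fractions, and a ratio within each library sets them side by side without any scaling between libraries. This ratio was chosen after the values were seen, so it is a description. Gimap7 to Gimap4 was 0.137 and 0.171 in HET CD62Lhi, and 0.207 to 0.247 in HET CD62Llo. In KO CD62Lhi it was 0.130 to 0.156, and in KO CD62Llo 0.146 to 0.216, where replicate 3 alone fell within the CD62Lhi range. Set against Gimap6, the flattest member, Gimap7 had a ratio of 0.321 to 0.339 in HET CD62Llo and 0.221 to 0.282 in the other 8 libraries. Gimap6 was likewise picked from these values, and its deviations from the group means had r of 0.82 with those of Gimap7. This second ratio is thus also a description.

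**Figure D3:**
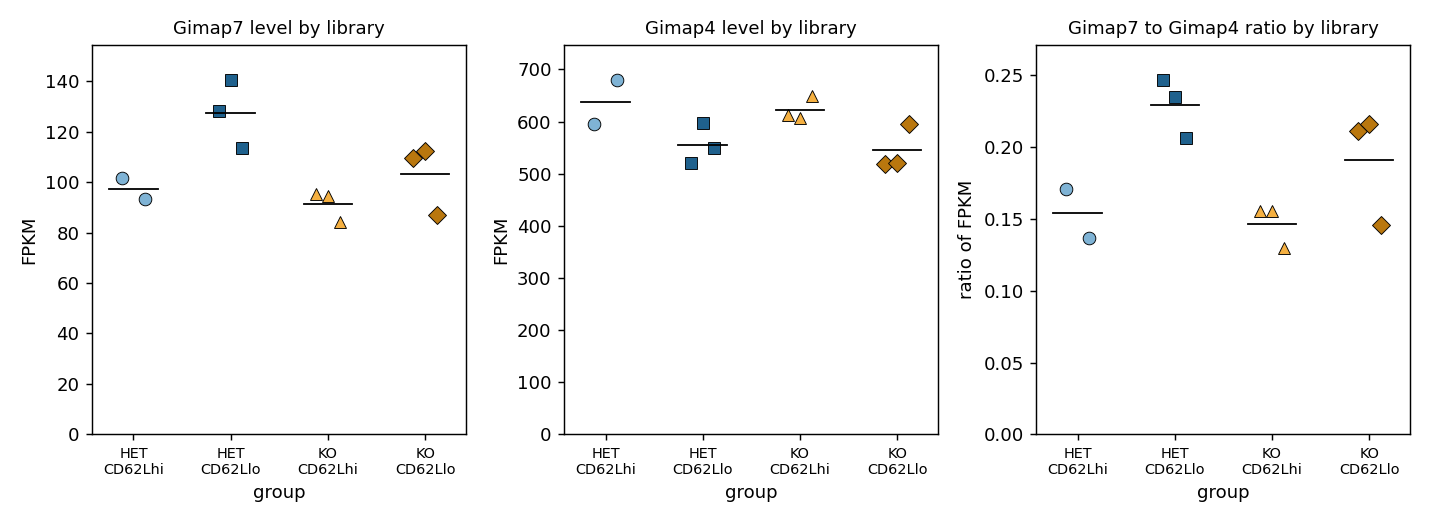
FPKM of Gimap7 and Gimap4, and their ratio, in each library by group, on axes from 0 with a dash at the group mean. The Gimap7 to Gimap4 ratio is 0.207 to 0.247 in HET CD62Llo, above both HET CD62Lhi libraries (0.137 and 0.171).

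Markers of other cell types moved with the CD62L fraction, and their part in the values of Gimap7 and Gimap4 was not tested. B cells and CD8 T cells express GIMAP genes too. The summed FPKM of 4 B cell markers was 62.4 to 106 in the CD62Lhi libraries and 17.1 to 51.1 in the CD62Llo libraries. Of the 4, 3 (Cd79a, Ms4a1 and Pax5) were called lower in CD62Llo in both genotypes. The shares of all tested genes called lower in CD62Llo were 8.88% (HET) and 4.26% (KO), and those called higher 18.8% and 11.9%. The 5 CD8 T and NK cell markers summed to 30.0 to 44.6 in CD62Lhi and 13.2 to 19.7 in CD62Llo. Of these, Cd8a and Cd8b1 were called lower in CD62Llo in both genotypes, but the NK cell receptor gene Klrb1c was called higher, by 1.49 in HET and 0.85 in KO, the latter not under quantile normalization. The 4 myeloid markers summed to 10.2 to 19.3 in CD62Lhi and 28.3 to 236 in CD62Llo, and Lyz2 made up most of these sums. Lyz2 was called higher in CD62Llo, by 2.22 in HET (not under quantile normalization) and 3.17 in KO. Csf1r was not called in either genotype. The Itgam means were lower in CD62Llo (0.331 and 0.258 FPKM in the HET fractions, 0.420 and 0.368 in KO), and the Cd14 means were higher. Of the endothelial markers, Tie1 was listed at 0 in every library and Kdr and Cdh5 reached at most 0.0739 FPKM, though Pecam1, which T cells also express, was lower in CD62Llo. Pecam1 was also called higher in KO CD62Llo than in HET CD62Llo, by 0.43, and stayed so under both scalings and the replicate block. The 4 red cell and platelet markers summed to 2.968 to 226.5 FPKM over the libraries, and 0 of the 2 tested were called in any comparison. Between genotypes, 0 markers of B cells, CD8 T and NK cells or myeloid cells were called, beside 0% (CD62Lhi) and 4.60% (CD62Llo) of all tested genes. With the replicate block that called Gimap7, however, 2 of 4 B cell markers (Cd79a and Ms4a1) were called higher in KO CD62Llo. The share of all tested genes called under that block is not given here. Under the same block the Treg markers Ctla4 and Cd4 were called lower in KO CD62Llo, the direction of Gimap7. Of the 6 Treg markers, 4 were called higher in CD62Llo in both genotypes: Ctla4 (1.57 in HET and 1.13 in KO), Ikzf2 (0.80 and 0.56), Cd4 (0.52 and 0.31) and Cd3e (0.38 and 0.30). Beside these stood 18.8% (HET) and 11.9% (KO) of all tested genes called higher. In KO, Cd4 was no longer called under either scaling, nor Cd3e under median centring. In bulk RNA, fewer cells with a transcript and less of it per cell cannot be told apart.

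Within groups, 5 of the genes varied together from library to library. After the group means were taken out, the deviations of Gimap1, Gimap3, Gimap5, Gimap6 and Gimap7 over the 11 libraries (7 residual degrees of freedom) had pairwise Pearson r of 0.67 to 0.91, with a median of 0.77 over the 10 pairs. Gimap4 stood apart from these 5, with r of -0.49 to -0.18, as did Gimap9, with r of -0.39 to -0.02, and the pair Gimap4 and Gimap9 had r of 0.60. Over all pairs of genes with a mean of at least 50 FPKM the median r was 0.16, and 11.7% of the pairs reached 0.67. The set of 5 was picked after its values were seen, and libraries share depth and scaling, so these are descriptions without a test. Gimap3 and Gimap5, the pair with r of 0.91, share 190 stretches of 50 bases. Gimap1, Gimap3, Gimap5 and Gimap7 share some with an annotated read-through gene of the cluster, Gm28053. All such stretches of Gimap4, Gimap6 and Gimap9 occur in no other gene. The part of shared sequence in these r values was not tested. The replicates numbered 3 lay low in 3 groups: 6 of 8 members were below their group mean in HET CD62Llo, KO CD62Lhi and KO CD62Llo replicate 3, while 8 of 8 were above it in HET CD62Llo replicate 2.

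**Figure D4:**
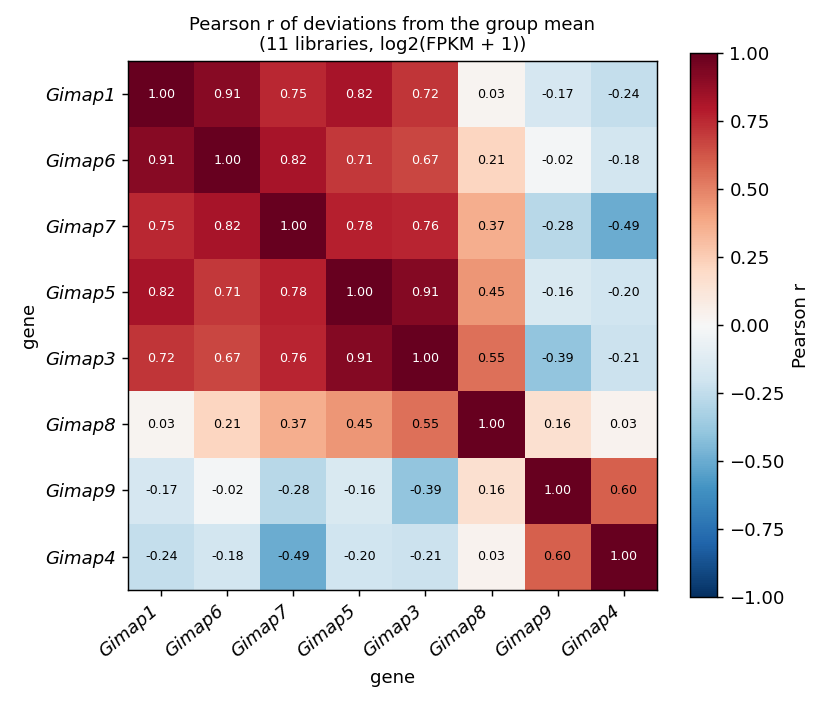
Pearson r between pairs of GIMAP genes for the deviations of log2(FPKM + 1) from the group mean over 11 libraries, coloured from -1 to 1. Gimap1, Gimap6, Gimap7, Gimap5 and Gimap3 form a block of r from 0.67 to 0.91, and Gimap4 has negative r with each of these 5.

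The genes outside the family whose level over the 11 libraries was most like the mean of the 8 GIMAP genes were Heatr5b (r = 0.95), Ints9 (0.91), Vps33a (0.89), Sash3 (0.87) and Inpp5k (0.87), against a median r of 0.22 over 7673 candidates. None of the 5 was called in any comparison, and the highest library exceeded the lowest by 1.15 to 1.25 times. The points share library and depth, and the values of r are given without a test.

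Of the genes for 5 proteins reported to interact with GIMAP proteins, the survival factor Bcl2 fell and the survival factor Bcl2l1 rose in CD62Llo Tregs of both genotypes. Bcl2 had 69.4 ± 1.20 FPKM in HET CD62Lhi (SD, n = 2) and 36.5 ± 0.990 in HET CD62Llo (SD, n = 3), a difference of -0.91 (SE 0.09, limma adjusted p = 0.000117), and 71.9 ± 3.56 against 57.2 ± 7.42 in the KO fractions (SD, n = 3 each), a difference of -0.33. Between genotypes Bcl2 was higher in KO CD62Llo than in HET CD62Llo, by 0.63 (SE 0.08, limma adjusted p = 0.00512). Bcl2l1 rose by 0.46 in HET and 0.29 in KO, the latter not called under quantile normalization, median centring or the replicate block. Gabarapl2, the partner of Gimap6, Bax and Gsk3b were not called in any comparison.

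Among 13 genes of the ATG8 family and autophagy, 4 rose and 0 fell in HET CD62Llo, and 3 rose and 0 fell in KO CD62Llo, where 18.8% and 11.9% of all tested genes were called higher. Gabarapl1, a relative of Gabarapl2, rose by 1.20 in HET and 1.06 in KO, from 5.54 to 14.1 FPKM and from 4.87 to 11.2 FPKM, and Gabarap rose by 0.31 and 0.25. Atg7, which activates ATG8 proteins for conjugation, rose by 0.40 and 0.25, the second value not called under either scaling or the block. Ulk1, the kinase that starts autophagy, rose by 0.33 in HET and was lower in KO than in HET CD62Llo by 0.27, the 1 of 13 called between genotypes, though not under median centring. Of all tested genes, 3.25% were called lower in KO CD62Llo than in HET CD62Llo. The median of the 13 differences was 0.04 in HET and 0.09 in KO, against 0.07 and 0.05 over all tested genes.

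Of 11 survival and death genes, 3 rose and 1 fell in HET CD62Llo, and 2 rose and 1 fell in KO CD62Llo, beside 27.7% and 16.2% of all tested genes called in either direction. Besides Bcl2 and Bcl2l1, the death promoter Pmaip1 rose by 0.73 and 0.70, and Bid rose by 0.36 in HET (not called under either scaling) and was lower in KO than in HET CD62Llo by 0.52. Of 13 genes of T cell quiescence, 7 fell in HET CD62Llo and 3 in KO CD62Llo, and 0 rose, where 8.88% and 4.26% of all tested genes were called lower. The trafficking regulator Klf2 fell by 1.69 and 1.01 on the log2 scale, its target S1pr1, the egress receptor, fell by 1.55 and 0.90, and Lef1 fell by 1.15 and 0.63. The homing receptor Ccr7 fell by 0.63 in HET. In CD62Llo Tregs 5 of 13 (S1pr1, Klf2, Ccr7, Lef1 and Foxp1) were higher in KO than in HET, by 0.70, 0.70, 0.60, 0.49 and 0.32. Of all tested genes, 1.36% were called higher in that comparison. The median difference of the 13 was -0.31 in HET, beside 0.01 for the 8 GIMAP genes, a family known for resting T cells. Between the KO fractions both medians lay near 0, at -0.00097 for the 13 and 0.02 for the GIMAP genes.

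The interferon-inducible GTPases, a separate family of immune GTP-binding proteins, had called members in both directions. Of 20 members 4 rose (Gbp3 by 0.83, Iigp1 by 0.56, Gbp5 by 0.55 and Gbp8 by 0.47) and Tgtp1 fell by 0.47 in HET CD62Llo, beside 18.8% of all tested genes called higher and 8.88% lower, so the share called was near the background. In KO CD62Llo, Gbp3 rose by 0.51 and Gbp5 by 0.50, while Tgtp1 fell by 0.52 and Tgtp2 by 0.46, and 0 of 20 were called between genotypes in either fraction. The shares of all tested genes called between genotypes were 0% in CD62Lhi and 4.60% in CD62Llo. With the replicate block, Gbp3 was called lower in KO CD62Llo than in HET CD62Llo, as were the receptor Il7r of the survival genes and Map1lc3b of the ATG8 family, and the quiescence factor Foxo1 was called higher (also under both scalings). Between the fractions of both genotypes the block also called the death promoter Bcl2l11 lower, and in HET Map1lc3b higher. With median centring 4 quiescence genes were called lower between the KO fractions, adding Foxo1, and with quantile normalization Btg1 was called higher there. With median centring, as with the block, 3 interferon-inducible GTPases were called lower between the fractions of each genotype, adding Ifi47 in both and Tgtp2 in HET. The calls of these lists under both scalings and the block were looked at after the data had been seen. Between the genotypes of CD62Lhi cells 0 genes of any of these lists were called, as were 0% of all tested genes. There the 2 most abundant members of each list had differences of 0.02 (Igtp), -0.04 (Ifi47), -0.18 (Mcl1), -0.08 (Bax), 0.07 (Tcf7), 0.0049 (Slfn2), -0.09 (Gabarap), -0.12 (Sqstm1) and 0.03 (Gabarapl2).

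The cluster shares its chromosome with the edited gene. It begins 1052 kb after the end of Ezh2, so chromosome 6 DNA that travels with the floxed allele and the loss of Ezh2 cannot be told apart in comparisons of KO with HET. Of 26 other tested genes within 2 Mb of Ezh2, 0 were called between genotypes in either fraction by limma. The shares of all tested genes called between genotypes were 0% in CD62Lhi and 4.60% in CD62Llo. Between the fractions 7 rose in HET CD62Llo (Cul1, Pdia4, Zfp467, Zfp862, Repin1, Tmem176b and Tmem176a) and 5 in KO CD62Llo (the same without Cul1 and Pdia4), and 0 fell, beside 18.8% and 11.9% of all tested genes called higher. The nearest measured gene beyond Gimap3 was Tmem176b, which encodes a membrane protein related to the MS4A family. It rose from 4.28 ± 0.647 FPKM in HET CD62Lhi (SD, n = 2) to 13.4 ± 4.74 in HET CD62Llo (SD, n = 3), by 1.40 (SE 0.26, limma adjusted p = 0.00364), and by 1.36 between the KO fractions. The nearest gene before Gimap8, AI854703, had group means of 0.915 to 1.18 FPKM.

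Sequence shared between members bears on how well 50-base reads place them. In the GENCODE transcripts, all 50-base stretches of Gimap4, Gimap6, Gimap8 and Gimap9 occur in no other gene, as do 97.4% of those of Gimap7, 90.2% of Gimap3, 86.0% of Gimap1 and 84.9% of Gimap5. The coding sequences of Gimap3 and Gimap5 were 90.3% identical over 898 aligned bases, against 56.2% to 66.7% for the other pairs. Their longest identical run, shown because a read that falls inside it cannot be placed, is 140 bases long, coding bases 175 to 314 of Gimap3 and 187 to 326 of Gimap5, and no letters are in capitals.

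Gimap3 and Gimap5 shared coding run: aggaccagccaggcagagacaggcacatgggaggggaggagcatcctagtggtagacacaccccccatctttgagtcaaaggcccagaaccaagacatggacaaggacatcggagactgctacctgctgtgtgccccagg

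In this run and others, Gimap3 and Gimap5 share 190 stretches of 50 bases, and the sources used here do not say how the authors divided such reads. A read-through gene from Gimap7 to Gimap5 (Gm28053) and an antisense gene at Gimap1 (Gimap1os) are also annotated in the cluster, without entries in the files. Gm28053 lies on the strand of Gimap7, Gimap1 and Gimap5, so its reads could count towards these members whether or not strand was used, whereas Gimap1os lies on the opposite strand to Gimap1 and its reads could do so only if strand was not used. For Gimap3, Gimap5, Gimap6, Gimap7 and Gimap9 the deposited FPKM exceeded its own upper interval bound in 11 of 11 libraries, and for Gimap1, Gimap4 and Gimap8 in 0 of 11. Of all entries above an FPKM of 1, 12.1% to 30.8% exceeded their own upper bound, depending on the library. Using the middle of the interval instead, Gimap7 between the HET fractions was 0.37 (limma adjusted p = 0.0439).

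Gimap5 is the member whose level depends on which deposited file is read. In the authors' deposited group table Gimap5 had 46.3, 54.5, 48.4 and 48.5 FPKM in HET CD62Lhi, HET CD62Llo, KO CD62Lhi and KO CD62Llo. The means of the libraries were 84.8, 89.4, 83.0 and 85.6, so the table held 0.546 to 0.609 of the library mean. The other 7 members had 1.09 to 1.38 times their library mean in that table, and the median over all genes with at least 10 FPKM in both was 1.17 to 1.26. The first percentile of that ratio over genes was 0.895 to 0.916, above every Gimap5 value. The cause was not tested, and the levels given above for Gimap5 are those of the libraries.

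**Figure D5:**
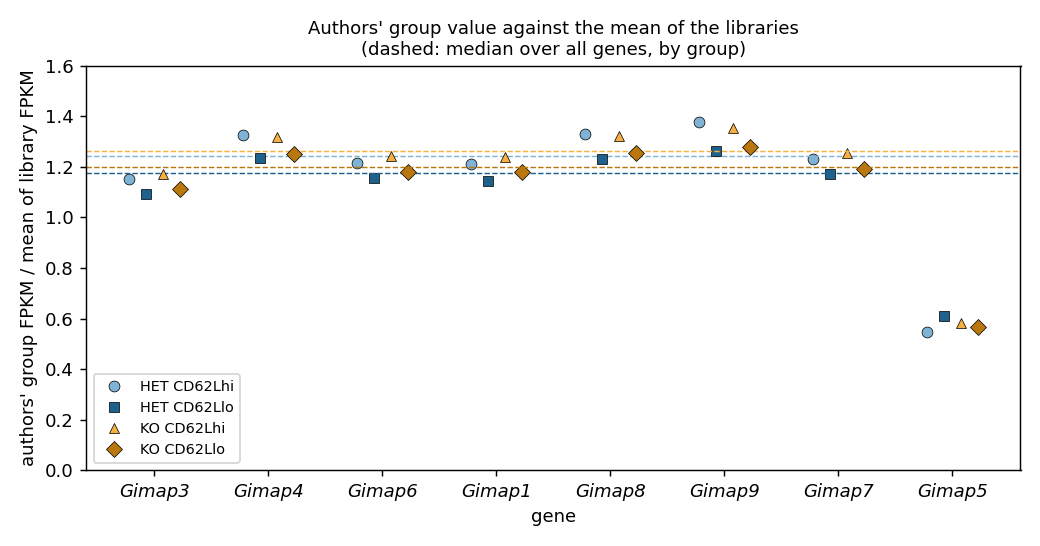
Ratio of the authors' group FPKM to the mean of the library FPKM for each GIMAP gene and group, with a dashed line at the median over all genes. Gimap5 lies at 0.546 to 0.609 in the 4 groups, and the other 7 genes lie at 1.09 to 1.38.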

How the data were processed

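Tregs were sorted by the authors and poly(A) RNA was read as single ends of 50 bases, per the labels' protocols. Per the submitters' processing notes the authors used Cufflinks 2.1.1, TopHat, FastQC and CASAVA 1.8.2 with the mm10 build, and deposited FPKM per gene with interval bounds in the same unit. Their settings and the read totals are unknown, and 10597 to 11024 symbols reached an FPKM of 1 in the 11 libraries. Taking the bounds as 2 SD to each side, the GIMAP values imply 704 to 40884 fragments per gene and library, an estimate.

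Each file held 23846 entries, and entries of 1 symbol were summed. In R 4.3.3, limma 3.58.1 was fitted to log2(FPKM + 1) with 4 group means, an empirical Bayes trend and Benjamini-Hochberg adjustment at 0.05. On simulated data this fit called 2% to 10% of added changes of 0.2, depending on the comparison. It called 53.3% to 68.7% of changes of 0.5. Most true changes of 0.2 were thus missed there, so an uncalled small difference does not show that there is none. The contrasts were the 2 fraction differences, the 2 genotype differences and their interaction. Same-numbered CD62Llo libraries of HET and KO had deviations with r of 0.165, 0.153 and 0.148, and the labels name no shared mouse or day. In the other comparisons at least 1 pair had r under 0.1, though same-numbered libraries of the KO fractions had r of 0.131, 0.0684 and 0.178. Named were all 8 GIMAP genes, check genes, up to 4 called members per list with the largest change or the 2 most abundant, flanking genes, called genes near Ezh2 and the 5 genes most like the family mean. The members and lists were chosen with earlier results of these data known, and 1 listed quiescence gene and 1 B cell marker are not reported here. Promoters came from RefSeq, for 8 of 8 members, and transcripts from GENCODE. Alternatives covered the pseudocount, filter, scaling, trend, groups fitted, replicate block, interval midpoint and each library left out.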

Additional observations from a re-analysis of the deposited data

How the results depend on the processing

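Of 912 differences of single GIMAP genes recomputed under alternatives, 0 called values reversed, 894 kept their side of the threshold, 14 lost a call and 4 gained one. Among differences that were not called, 83 had another sign under an alternative. The count of GIMAP genes called between the HET fractions, 1, was 0 with no filter on low values, 0 with quantile normalization, 0 without a trend, 0 with only the 2 groups in the fit, 0 with HET CD62Lhi replicate 3 included, and 0 to 1 with 1 library left out. With median centring the count stayed 1, but the gene called was Gimap4 instead of Gimap7. With median centring and KO CD62Llo replicate 3 left out together, an alternative chosen after seeing the data like the interval midpoint, it was 2 (Gimap4 and Gimap7), and between the KO fractions 1 (Gimap4). With the replicate number as a block, the count between genotypes in CD62Llo was 1 (Gimap7) and no other count of GIMAP genes changed. Genes of other lists gained calls in that comparison too. For this block and for the joint setting before it, the share of all tested genes called is not given here. The cause of these changes was not tested, except that the settings with fewer libraries or groups have fewer samples.

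Scaling moved the balance of calls: quantile normalization and median centring each lowered the median of the HET fraction difference by 0.10, and the share of higher genes among all calls went from 67.9% to 46.6% and 45.0%. Between the KO fractions that share went from 73.7% to 54.5% and 50.5%, and between genotypes in CD62Llo from 29.5% to 43.3% and 44.6%. With HET CD62Lhi replicate 3 included, the calls over all genes dropped from 3163 to 355 and from 1852 to 64 between the fractions of HET and KO, and from 526 to 3 between genotypes in CD62Llo. With only the 2 groups in the fit, the last count was 109. Among genes of the other lists that were called, 0 had another sign under either scaling. Precision is limited by 2 or 3 libraries a group.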

Other observations

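Single members had close matches in level outside the family, named here after their values were seen and without a test. Over the 11 libraries Gimap7 had r of 0.96 with Ift140 and 0.95 with Ezh1, the paralog of Ezh2, against a median of 0.31 over 7673 candidates. Ezh1 had 20.1 ± 0.143 FPKM in HET CD62Lhi (SD, n = 2) and 24.4 ± 1.24 in HET CD62Llo (SD, n = 3), and was called higher in HET CD62Llo (0.27, SE 0.07, limma adjusted p = 0.0189). Its means were 19.8 and 22.2 FPKM in KO CD62Lhi and CD62Llo. Gimap4 had r of 0.95 with Tgtp2, an interferon-inducible GTPase, against a median of -0.27 over the candidates. Tgtp2 had 74.6 and 56.5 FPKM in the HET fractions and 78.6 and 56.8 in the KO fractions, lower in CD62Llo as the Gimap4 means were.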
